A study of Mus musculus with 8 samples.

Results

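Regions of open chromatin that lie inside very long genes are described here in splenic conventional type 1 dendritic cells (cDC1) of the mouse. A region was included when it lay on chromosomes 1 to 19, overlapped the span of a protein-coding gene of 200 kb or longer, and was more than 1 kb from the ends of every protein-coding gene. This rule used gene models of GRCm38 and no measured value. It selected 5933 of the 59906 regions of the count table, or 9.90%. Of the rest, 19153 lay inside shorter genes by the same distance rule, 12988 at gene ends and 20749 between genes. The 200 kb limit fell between Sergef (199.7 kb, 6 regions) and Atp9b (199.9 kb, 3 regions), which were left out, and Pbx3 (200.6 kb, 1 region) and Tspear (200.9 kb, 1 region), which were included.

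The assay was ATAC-seq, in which a transposase cuts accessible DNA and the sequenced fragments mark open chromatin. The 4 WT libraries and the 4 OPA1-deficient libraries were made from splenic cDC1 sorted from WT mice and from mice carrying CD11c-Cre with floxed Opa1, whose protein fuses the inner membranes of mitochondria and shapes their folds. CD11c-Cre is driven by the Itgax promoter, which is active in dendritic cells as a class and in some macrophages, so the deletion is not particular to cDC1. The labels give no age or sex, do not say whether WT mice carried Cre or which part of Opa1 was deleted, and do not tie libraries to animals. The p-values therefore measure the spread between libraries, which may be technical.

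Library totals ran from 4660826 to 7590578 counts, and TMM scaling factors, which set libraries of different composition on a common scale, from 0.947 to 1.03. Levels are given as CPM, counts scaled to library size, after this scaling. Of 11 cDC1 marker genes, 10 had a region within 1 kb of an end, and the region with the highest level was used for each. The summed level of these regions ran from 274 to 299 CPM in WT, against from 262 to 298 CPM in OPA1-deficient libraries. The summed level of 8 macrophage markers ran from 54.9 to 68.7 CPM in WT, against from 48.5 to 51.1 CPM in OPA1-deficient libraries, without overlap. The regions of 7 of these 8 macrophage genes were lower in OPA1-deficient libraries and none was called. Marker genes of other cells were compared in the same way, and their summed levels overlapped between groups. All 4 cDC2 genes with a region (60.6 to 71.8 CPM in WT, against 56.1 to 62.3 CPM) were below 0. So were all 3 B cell genes (32.6 to 42.2 CPM in WT, against 30.4 to 36.4 CPM) and 7 of the 10 cDC1 genes. Above 0 were 2 of 3 plasmacytoid dendritic cell genes, 2 of 3 red cell genes and the 1 NK cell gene. T cell and neutrophil genes had 1 on each side. None was called, and 59.8% of all tested regions at gene ends were below 0.

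Very long genes are mostly intron. Many code for adhesion molecules, ion channels and synaptic proteins that are used in neurons, while others code for transcription factors and signalling proteins used in blood cells. Open chromatin inside such a gene can be an enhancer of that gene or of another gene, or the start of a shorter transcript. Several of the longest genes lie at common fragile sites, which break when DNA replication is slowed.

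Some of the regions covered a start that the annotation places inside the gene. The sequences of 4 such internal start windows are printed to show what these regions hold: Hdac4 and Stag1, which had the highest levels, Wdfy4, a cDC1 gene, and Nr3c2, whose region had the smallest p of these 4. They were chosen after their values were seen. Each window runs from 250 bases before to 50 bases after the annotated start, 5′ to 3′ on the gene's strand, from RefSeq on GRCm38.p6. Capitals mark GGGCGG (the GC box) and CCAAT (the CCAAT box), searched on both strands.
Hdac4: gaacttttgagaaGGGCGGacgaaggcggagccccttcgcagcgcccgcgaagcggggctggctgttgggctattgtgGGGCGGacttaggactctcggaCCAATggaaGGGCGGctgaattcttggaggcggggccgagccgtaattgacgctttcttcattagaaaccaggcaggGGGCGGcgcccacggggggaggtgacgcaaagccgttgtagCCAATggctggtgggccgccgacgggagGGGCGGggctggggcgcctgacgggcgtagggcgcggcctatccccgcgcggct
Stag1: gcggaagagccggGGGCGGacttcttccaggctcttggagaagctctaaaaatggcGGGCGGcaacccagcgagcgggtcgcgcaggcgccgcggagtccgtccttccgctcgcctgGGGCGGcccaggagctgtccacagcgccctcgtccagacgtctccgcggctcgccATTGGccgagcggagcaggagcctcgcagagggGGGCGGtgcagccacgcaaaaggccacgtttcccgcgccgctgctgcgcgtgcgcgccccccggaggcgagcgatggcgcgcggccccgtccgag
Wdfy4: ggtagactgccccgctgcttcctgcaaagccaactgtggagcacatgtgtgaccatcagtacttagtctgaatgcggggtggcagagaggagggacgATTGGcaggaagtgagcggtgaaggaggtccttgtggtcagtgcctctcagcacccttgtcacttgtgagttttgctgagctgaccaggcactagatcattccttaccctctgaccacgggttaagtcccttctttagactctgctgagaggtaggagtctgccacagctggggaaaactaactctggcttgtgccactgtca
Nr3c2: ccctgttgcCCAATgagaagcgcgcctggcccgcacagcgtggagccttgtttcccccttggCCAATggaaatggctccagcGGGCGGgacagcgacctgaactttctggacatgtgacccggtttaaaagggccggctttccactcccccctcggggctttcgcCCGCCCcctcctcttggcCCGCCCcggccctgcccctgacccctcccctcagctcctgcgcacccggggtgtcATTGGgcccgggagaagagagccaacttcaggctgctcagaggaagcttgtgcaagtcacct

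The Hdac4 window lies at chr1:92180292-92180591 on the minus strand, 15.4 kb from the nearer end of the gene. It was 68.0% G and C with 32 CpG dinucleotides. The Stag1 window, at chr9:100643198-100643497 on the plus strand, was 73.7% G and C with 43 CpG. The Wdfy4 window, at chr14:33185017-33185316 on the minus strand, was 54.3% G and C with 5 CpG and had no GC box. The Nr3c2 window, at chr8:76902080-76902379 on the plus strand, was 65.7% G and C with 17 CpG and held 3 GC boxes and 3 CCAAT boxes. The internal start windows found for very long genes numbered 472, of which 116 lay under a region. Of the 726 very long genes with a region, 555 had a strand known from a start window. Internal starts of the others may have been missed. Windows under a region had a median of 64.5% G and C and 20 CpG, against 50.3% and 6 CpG for the 356 windows under none. The GC box was present in 55.2% of windows under a region, in 24.4% of those under none and in 35.7% of all 32851 start windows searched. The CCAAT box was present in 33.6%, 36.0% and 37.4%. The AP-1 motif TGANTCA was found in 6.03% of windows under a region and 7.81% of all windows, and the ETS motif GAGGAAGT in 1.72% and 3.20%. These matches describe the letters only. Sequence outside the start windows was not used here.

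The regions were spread unevenly over genes. Of 945 very long genes, 726 held at least 1 region and 219 held none. The median over genes with a region was 6, 110 genes held 1, and the 231 genes with 10 or more held 3910 regions. Foxp1, a forkhead transcription factor used across blood lineages, held the most, 59. It was followed by Pde4d, a cyclic AMP phosphodiesterase, with 47. Arhgap26, a GTPase-activating protein, and Etv6, an ETS family repressor needed in blood stem cells, held 39 each. Sgms1, a sphingomyelin synthase, held 38. Per length, Etv6 had 16.6 regions per 100 kb, Zmiz1, a transcriptional coactivator, had 14.8, and Sgms1 had 14.2. The longest genes were sparse by comparison. Cntnap2, a neuronal adhesion gene of 2241 kb, held 10, Lsamp, of 2197 kb, held 4, and Macrod2, of 1998 kb, held 10.

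**Figure D1:**
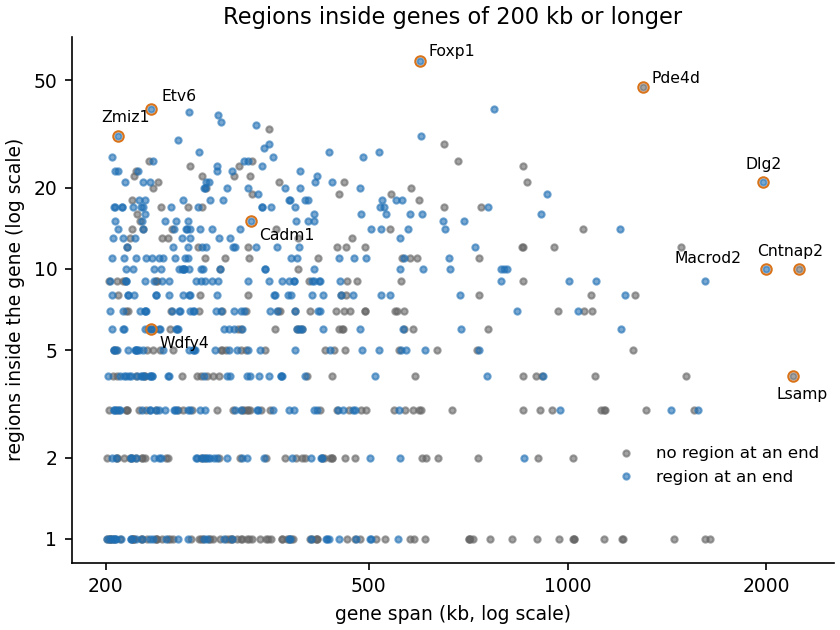
Number of regions inside each of the 726 very long genes that held any (vertical, log scale) against the gene's span in kb (horizontal, log scale). Blue points are genes that also had a region at an end and grey points are genes that had none. Foxp1 stands highest with 59 regions, and the 3 longest, Cntnap2, Lsamp and Macrod2, held 10 or fewer.

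Very long genes held 1.48 regions per 100 kb of span, against 3.24 in shorter genes. The density differed with the state of the gene's ends. The 450 very long genes with a region at an end had a median of 7 inside and 2.42 per 100 kb, and 415 of them held at least 1. The 495 with no region at either end had a median of 1 and 0.819 per 100 kb, and 311 held at least 1. The regions lay a median of 71.7 kb from the nearest end of a protein-coding gene and at most 982 kb, and 62.6% lay more than 50 kb away. Of all the regions, 30 lay in 2 or more very long genes and 70 also in a shorter gene, so that the host gene is not unique for them. Annotated miRNA hairpins lay under 4 regions, in Ppm1h, Pde4d, Fndc3b and Gse1.

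Where the gene's strand was known from a start window (555 genes, 4746 regions), the first 10% of the span held 12.5% of the regions. The stretch from 50% to 60% of the span held the fewest, 8.05%, and the last 10% held 11.97%. Of the regions over an internal start, 44 lay in the first 10%.

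**Figure D2:**
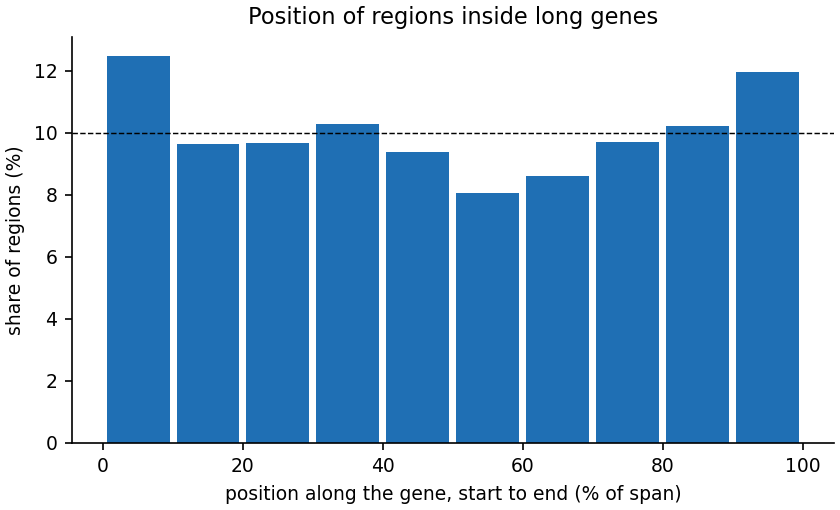
Share of the 4746 regions (vertical, %) in each 10% of the gene's span from its start to its end (horizontal, % of span), over 555 very long genes with a known strand. The dashed line marks the share that an even spread would give, and the first 10% (12.5%) and the last 10% (11.97%) stand above it.

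The regions were smaller and lower than those at gene ends. Their median width was 296 bp and their median level 5.03 CPM per region, a median of 31 counts. Regions inside shorter genes had a median of 304 bp and 5.91 CPM, and gene ends 490 bp and 24.0 CPM. These levels are per region and not per length. The regions took 4.94% ± 0.13 (SD, n = 4) of counts in WT and 4.97% ± 0.11 in OPA1-deficient libraries, a difference smaller than the SD. The highest levels were at regions in Hdac4, a class II histone deacetylase, with a mean of 223 CPM, in Stag1, a cohesin subunit, with 217 CPM, and in Stard13, a GTPase-activating protein, with 176 CPM. Rps6ka2, a ribosomal S6 kinase, had a region at 164 CPM, Arhgap26 at 131 CPM and Chd9, a chromodomain helicase, at 121 CPM. Those in Hdac4, Stag1 and Rps6ka2 covered an internal start, and that in Stard13 covered an annotated start of another gene, 1700028E10Rik. No start window gave a strand for Arhgap26, so an internal start there may have been missed. The log2 fold changes of these 6 between OPA1-deficient and WT libraries lay between -0.09 in Arhgap26 and 0.03 in Chd9, and none was called. In Rps6ka2, Stard13, Chd9 and Stag1 the sign turned under other scalings or with 1 library left out.

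The main comparison asked which regions differed in openness between OPA1-deficient and WT cDC1. All regions of the table were fitted with edgeR's quasi-likelihood test, p-values were adjusted over the table by Benjamini-Hochberg, and 0.05 was the limit for a call. Of the 5933 regions, 5832 passed the filter on low counts and 101 did not. Of those tested, 2979 had a log2 fold change above 0 and 2853 below 0. Their median was 0.007, and it was -0.004 over all 59247 tested regions, 0.012 inside shorter genes and -0.03 at gene ends. None was called higher and 1 was called lower, where 0.00506% of all tested regions were called higher and 0.0152% lower. At an unadjusted p under 0.05, 206 were higher (3.53%) and 286 lower (4.90%), against 2.92% and 3.46% of all tested regions. The 4 WT values and the 4 OPA1-deficient values did not overlap at 113 regions that were higher (1.94%) and 157 that were lower (2.69%), against 1.84% and 2.11% of all tested regions. In either direction the shares were 4.63% and 3.95%.

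The region called lower was at chr9:40321128-40321838 in Gramd1b, which codes for a protein that carries cholesterol from the plasma membrane to the endoplasmic reticulum. It measured 28.4, 25.7, 37.3 and 29.4 CPM in WT replicates 1 to 4, against 19.8, 17.9, 16.2 and 14.6 CPM in OPA1-deficient replicates 1 to 4. No OPA1-deficient value reached the lowest WT value. The log2 fold change was -0.81 ± 0.15 (SE), with an adjusted p of 0.0419 by edgeR's quasi-likelihood test. This call was lost in 11 of 16 alternatives, among them each omission of a single library other than WT replicate 2, with adjusted p from 0.00363 to 0.470 over the alternatives. Without WT replicate 2, 1 region was called higher and 9 lower, and without OPA1-deficient replicate 4, 0 and 3. The macrophage markers that were also lower in OPA1-deficient libraries, 48.5 to 51.1 CPM against 54.9 to 68.7 CPM, moved with it, and their part in the result was not tested. The 21 regions inside Gramd1b did not move together: 9 were above 0 and 12 below, and their sum differed by -0.13 ± 0.09.

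The regions with the next smallest p were not called in the main test. In Mgat5, a branching enzyme of N-glycans, a region at chr1:127270289-127270962 measured 18.1, 14.5, 18.8 and 16.1 CPM in WT, against 7.97, 9.79, 6.97 and 10.3 CPM in OPA1-deficient libraries (log2 fold change -0.95 ± 0.19, adjusted p = 0.0607, edgeR). In Arl15, a small GTPase of the ARF family, a region at chr13:113949681-113950151 measured 12.8, 7.48, 14.1 and 12.01 CPM in WT, against 6.12, 3.99, 3.75 and 5.90 CPM in OPA1-deficient libraries. In Palld, an actin-binding scaffold, a region measured 5.47, 3.90, 8.86 and 5.74 CPM in WT, against 1.99, 2.72, 0.804 and 2.30 CPM in OPA1-deficient libraries. All 3 had higher values in every WT library than in any OPA1-deficient library. On the higher side, a region in Tbc1d22a, which holds a domain of GTPase-activating proteins for Rab, measured 3.04, 4.36, 1.48 and 1.08 CPM in WT, against 8.82, 6.53, 7.91 and 6.23 CPM in OPA1-deficient libraries. Regions in Zfp407 and Hivep3, both zinc finger genes, had means of 1.32 and 1.39 CPM in WT, against 3.97 and 4.02 CPM in OPA1-deficient libraries. The adjusted p of these 2 were 0.199 and 0.280 (edgeR). The Zfp407 region, at 1.25 to 1.52 CPM in WT, passed the low-count filter only through its OPA1-deficient values. Its direction and p are therefore no support for a difference. Leaving out WT replicate 2 brought the regions of Mgat5, Arl15, Palld and Tbc1d22a past the limit, as did DESeq2, and leaving out OPA1-deficient replicate 4 those of Mgat5 and Arl15.

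Counts were then summed over the inside regions of each gene and fitted in the same way over all 7928 genes. Of the 719 very long genes tested, 350 were above 0 and 369 below, with a median of -0.005 against 0.004 over all genes. None was called higher and 3 were called lower, where 0.0378% of all genes were called higher and 0.0757% lower. At an unadjusted p under 0.05, 13 were higher (1.81%) and 51 lower (7.09%), against 3.15% and 3.58% of all genes. The groups did not overlap in 13 that were higher and 20 that were lower, where 2.41% and 2.04% of all genes did not overlap in these directions.

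Magi1, a scaffold protein of tight junctions, spans chr6:93675453-94283929 and held 5 regions. Their sum measured 29.3, 20.4, 31.6 and 24.7 CPM in WT replicates 1 to 4 and 14.1, 14.3, 16.6 and 14.6 CPM in OPA1-deficient replicates 1 to 4. Every WT library was above every OPA1-deficient library. The log2 fold change was -0.82 ± 0.15, with an adjusted p of 0.0297 by edgeR's quasi-likelihood test. All 5 regions were below 0, between -1.31 and -0.29, and none of them was called singly. The region at -1.31 passed the low-count filter only through its WT values (1.71 to 4.66 CPM, against 0.906 to 1.56 CPM in OPA1-deficient libraries). The 5 regions are also the parts of the called sum, so their shared direction adds no support to it.

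Epb41l3, a protein of the 4.1 family that links membrane proteins to actin, spans chr17:69075647-69289991 and held 9 regions. Their sum measured 58.4, 45.8, 63.5 and 62.2 CPM in WT, against 39.3, 36.8, 35.1 and 40.3 CPM in OPA1-deficient libraries. The groups did not overlap. The log2 fold change was -0.60 ± 0.12 and the adjusted p 0.0356 (edgeR). The largest region, at chr17:69225950-69226388, made up 32.0% of the sum and measured 20.1, 13.2, 16.7 and 22.8 CPM in WT, against 8.53, 12.7, 12.3 and 15.7 CPM in OPA1-deficient libraries, which overlapped. Of the 9 regions, which are the parts of this sum, 8 were below 0, and none was called singly.

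Dclk1, a kinase with doublecortin domains that binds microtubules, spans chr3:55242303-55539068 and held 2 regions. Their sum was low, at 12.5, 6.86, 10.5 and 11.8 CPM in WT, against 3.70, 5.98, 4.69 and 3.28 CPM in OPA1-deficient libraries, again without overlap. The log2 fold change was -1.24 ± 0.25 and the adjusted p 0.0441 (edgeR). At the first of its regions WT replicate 2 measured 1.25 CPM, inside the OPA1-deficient range of 0.984 to 1.88 CPM, while the other WT libraries measured 6.75 to 7.35 CPM.

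All 3 calls were lost with total counts, with limma-voom, and when any 1 of WT replicates 1, 3 and 4 and OPA1-deficient replicates 1, 2 and 3 was left out, and that of Dclk1 also without OPA1-deficient replicate 4. Over the alternatives the adjusted p ran from 0.00218 to 0.248 for Magi1, from 0.00186 to 0.306 for Epb41l3 and from 0.00399 to 0.304 for Dclk1, and every log2 fold change stayed below 0. Without WT replicate 2, 6 very long genes were called lower, with Grm5, Magi2 and Shroom3 added. The summed macrophage markers moved in the same direction as these genes. The fold changes of all 4 cDC2, all 3 B cell and 7 of 10 cDC1 marker genes were below 0 too. Those of 2 of 3 plasmacytoid dendritic cell genes, 2 of 3 red cell genes and the 1 NK cell gene were above 0. Of all tested regions at gene ends, 59.8% were below 0. The part of the marker genes in the result was not tested. In bulk libraries, fewer cells of a type with an open region and less opening per cell cannot be told apart.

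**Figure D3:**
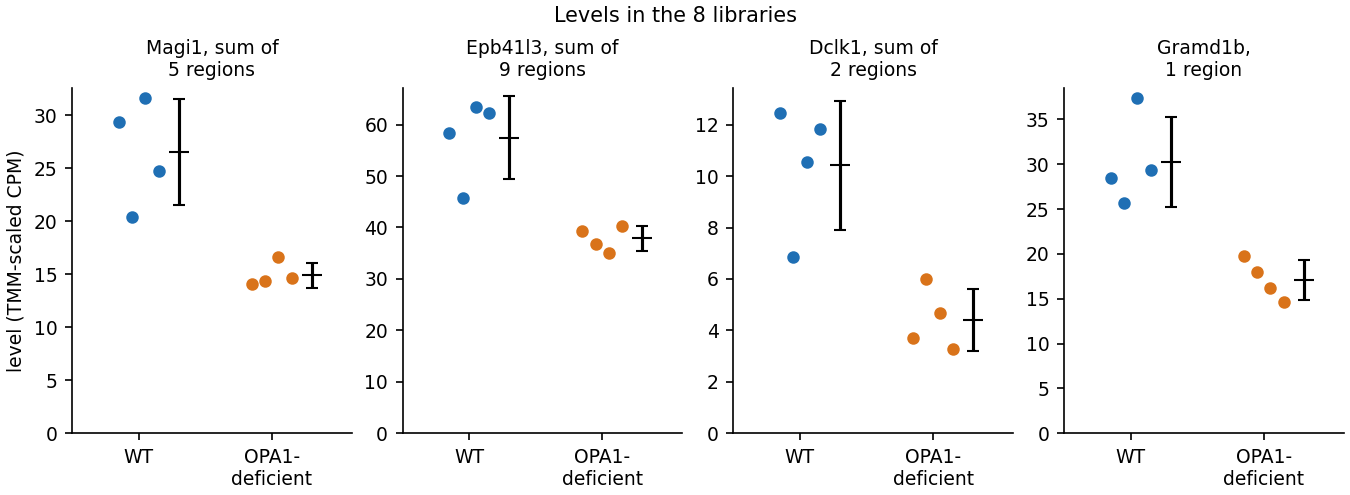
Level (TMM-scaled CPM, from 0) of the sums over Magi1, Epb41l3 and Dclk1 and of the called region in Gramd1b. Points are the 4 WT (blue) and 4 OPA1-deficient (orange) libraries, and the bars are the mean ± SD. In each panel every WT point lies above every OPA1-deficient point.

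**Figure D4:**
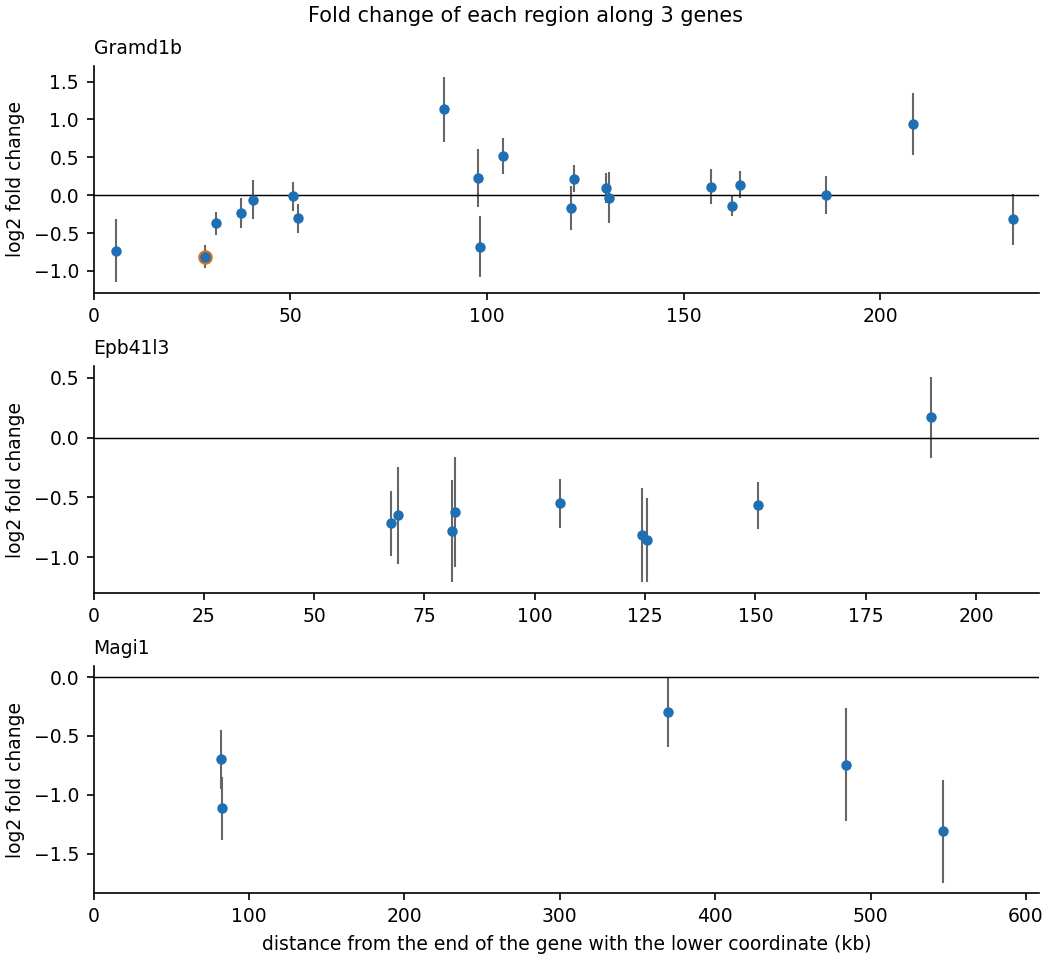
Log2 fold change (OPA1-deficient minus WT) of each tested region along Gramd1b, Epb41l3 and Magi1, with its SE, against distance in kb from the gene end with the lower coordinate. The orange point is the called region in Gramd1b at -0.81. Points in Gramd1b lie on both sides of 0, while 8 of 9 in Epb41l3 and 5 of 5 in Magi1 lie below it. The Magi1 point at -1.31 passed the low-count filter only through its WT values.

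The next smallest p among the sums belonged to Galnt14, an enzyme that starts O-glycans on proteins. It held 1 region, which measured 3.50, 2.49, 2.32 and 3.77 CPM in WT, against 7.68, 5.08, 8.45 and 8.20 CPM in OPA1-deficient libraries. All OPA1-deficient values were above all WT values, and the log2 fold change was 1.28 ± 0.27 with an adjusted p of 0.0626 (edgeR). DESeq2 called it higher, as did the sums over regions more than 5 kb from every end. The sums over Trabd2b (0.41 ± 0.14), Zfp469 (0.41 ± 0.14) and Dscaml1 (0.46 ± 0.16) were higher with adjusted p from 0.462 to 0.501 (edgeR). Grm5, a metabotropic glutamate receptor with 7 regions, measured 76.9, 47.8, 62.2 and 58.8 CPM in WT, against 38.0, 42.8, 42.5 and 48.7 CPM in OPA1-deficient libraries. WT replicate 2 was below the highest OPA1-deficient library, and the adjusted p was 0.211 (edgeR).

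**Figure D5:**
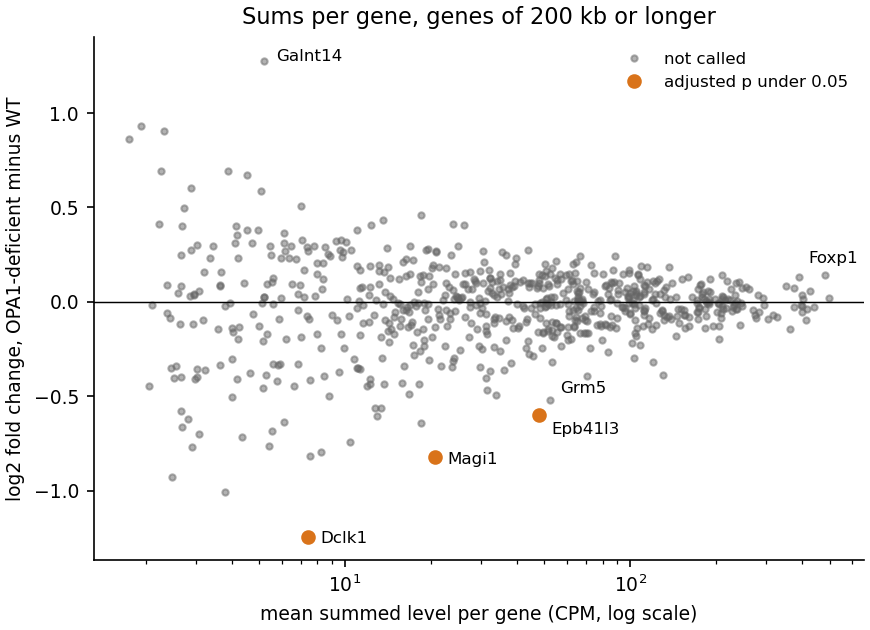
Log2 fold change of the sum over each of 719 very long genes (vertical, OPA1-deficient minus WT) against its mean summed level (horizontal, CPM, log scale). Orange points are the 3 called genes, all below 0, and Foxp1 lies at the right edge at 0.14.

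Foxp1, with the most regions, measured 438, 487, 466 and 444 CPM in WT, against 531, 490, 490 and 514 CPM in OPA1-deficient libraries. The groups did not overlap, but the difference was small, 0.14 ± 0.08 with an adjusted p of 0.808 (edgeR). Of its regions, 43 were above 0, 14 below and 2 did not pass the filter. Of 427 very long genes with 5 or more tested regions, 4 had every region above 0 and 9 every region below 0, together 3.04%, against 6.72% of 1072 shorter genes. The 4 were Acaca, Kcnip1, Rfx3 and Slc14a2, and Magi1 was among the 9, with a region that passed the filter only through its WT values. The share with every region on 1 side depends on the number of regions per gene and on their noise. Neither was matched between long and shorter genes, whose regions had a median SE of 0.28 and 0.26.

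Regions over an internal start numbered 112, with a median of 14.6 CPM against 4.94 CPM for regions over no start. The start windows did not cover every very long gene, so some regions over no start may cover one. Their median log2 fold change was -0.10, with 33 above 0 and 79 below, against 0.01 for regions over no start and -0.03 for regions over starts inside shorter genes. The difference between these medians was not tested. Of all tested regions inside very long genes at 20 CPM or more, 178 were above 0 and 266 below (59.9%), with a median of -0.025. At 10 to 20 CPM, where the median level of regions over an internal start lies, 393 were above 0 and 396 below (median -0.003). At gene ends 59.8% were below. For the regions over an internal start, leaving out each library in turn gave medians from -0.12 to -0.08. None was called, and at an unadjusted p under 0.05 1 was higher and 10 lower (0.893% and 8.93%), against 2.92% and 3.46% of all tested regions and 3.61% and 4.84% of those over no start. For regions over starts inside shorter genes the shares were 1.30% and 3.89%, and at gene ends 1.08% and 3.17%. Nr3c2, which codes for the mineralocorticoid receptor, held 1 of the start windows printed here. Its region measured 81.8, 73.7, 80.4 and 69.2 CPM in WT, against 56.3, 53.8, 56.2 and 63.8 CPM in OPA1-deficient libraries. WT values were all above OPA1-deficient values, and the log2 fold change was -0.41 ± 0.10 with an adjusted p of 0.188 (edgeR). This region made up 95.1% of the sum over the gene.

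The cDC1 list had 10 genes, of which 2 were very long, and both held regions. Wdfy4, needed for cross-presentation by cDC1, held 6 regions. Their sum measured 90.3, 116, 113 and 118 CPM in WT, against 115, 119, 121 and 107 CPM in OPA1-deficient libraries, which overlapped (0.08 ± 0.10). Cadm1, an adhesion molecule on the cDC1 surface, held 15 regions and measured 143, 111, 135 and 129 CPM in WT, against 122, 132, 136 and 156 CPM in OPA1-deficient libraries (0.08 ± 0.10). Neither was called, and 14 of their 21 regions were above 0.

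Among transcription factor and chromatin genes, 45 very long genes held 606 regions, with 325 tested above 0, 268 below and a median of 0.03, which ran from 0.02 without WT replicate 2 to 0.05 without WT replicate 3. Etv6 measured 419 ± 10.9 CPM in WT, against 435 ± 37.6 CPM in OPA1-deficient libraries (SD, n = 4 each), and Arid1b, a subunit of BAF remodellers, 232 ± 8.88 and 250.3 ± 16.8 CPM. Bach2, a repressor best known in lymphocytes, measured 213 ± 28.9 and 204 ± 23.2 CPM. None of the 593 tested regions was called.

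Kinase, phosphoinositide and cyclic nucleotide genes numbered 42 with 472 regions, 252 above 0 and 208 below. Their median of 0.03 ran from 0.02 without OPA1-deficient replicate 1 to 0.05 without WT replicate 2, and was also 0.05 without WT replicate 3, OPA1-deficient replicate 2 or OPA1-deficient replicate 4. Plcb4, a phospholipase C, measured 92.0, 76.0, 76.4 and 79.3 CPM in WT, against 96.4, 97.2, 94.7 and 95.3 CPM in OPA1-deficient libraries. The groups did not overlap, at 0.24 ± 0.09 and an adjusted p of 0.583 (edgeR). Endocytosis, membrane traffic and antigen handling genes numbered 27 with 310 regions, 151 above 0 and 155 below, and 1 region was called lower, that in Gramd1b. Genes of other blood cells numbered 10 with 127 regions, 65 above 0 and 58 below.

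Synaptic, ion channel and neural adhesion genes had the most very long genes and the fewest regions per length of the 9 lists. Of 120 very long genes on this list, 69 held 371 regions, or 0.388 per 100 kb, and 11 had a region at an end. Their regions were above 0 in 166 and below in 196 (median -0.03), and the median turned to 0.03 without WT replicate 1. At an unadjusted p under 0.05, 14 were higher (3.87%) and 32 lower (8.84%), against 2.92% and 3.46% of all tested regions, and none was called. Cacna2d1, a calcium channel subunit, measured 14.6, 8.26, 18.1 and 11.3 CPM in WT, against 7.54, 7.25, 7.24 and 9.02 CPM in OPA1-deficient libraries, which overlapped.

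Genes of common fragile sites numbered 18 with 201 regions, 82 above 0 and 111 below, a median of -0.08 that lay between -0.12 and -0.05 when each library was left out. At an unadjusted p under 0.05, 5 were higher (2.59%) and 26 lower (13.5%), against 2.92% and 3.46% of all tested regions, and none was called. Among all tested regions inside very long genes, 3.53% were higher and 4.90% lower. Of the 26, 6 lay in Magi2, 5 in Pde4d, 4 in Immp2l and 3 in Magi1, and regions of 1 gene are not independent. Of the 18 sums over these fragile site genes, 14 were below 0, and 1 of them, Magi1, was called. Magi2, a synaptic scaffold of 1485 kb, measured 174, 111, 162 and 144 CPM in WT, against 106, 111, 122 and 113 CPM in OPA1-deficient libraries, where WT replicate 2 lay among the OPA1-deficient values. Wwox, an oxidoreductase gene at a fragile site, lay on the other side, at 93.1 ± 5.43 CPM in WT, against 105 ± 7.44 CPM in OPA1-deficient libraries (0.17 ± 0.09, adjusted p = 0.783, edgeR).

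Mitochondrial genes numbered 13 with 123 regions, 57 above 0 and 63 below, none called. Their median of -0.06 turned to 0.01 without WT replicate 1. Ppargc1a, a coactivator of mitochondrial biogenesis, held 11 regions that measured 54.6 ± 3.70 CPM in WT, against 59.4 ± 4.41 CPM in OPA1-deficient libraries (0.12 ± 0.10). Oxr1, which protects against oxidative damage, held 9 and measured 204 ± 10.9 and 186 ± 8.03 CPM (-0.13 ± 0.08). Immp2l, a subunit of the inner membrane peptidase, held 19 and measured 81.5 ± 10.5 and 75.3 ± 7.59 CPM (-0.12 ± 0.11). None of the 13 sums was called.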

How the data were processed

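The authors' deposited table gives counts per region for 8 ATAC-seq libraries, as whole numbers. The submitters' processing notes name MACS2 2.1.0.20150603, bedtools, SAMtools, Picard 1.65 and cutadapt 1.9 and the build mm10 (GRCm38); their order and settings, and the aligner, are not given in the sources used here. Even counts made up 54.1% to 59.9% of values by library, so some fragments may have been counted at both ends.

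Regions were placed against RefSeq protein-coding gene spans on GRCm38.p6. Counts, and sums of counts per gene over regions more than 1 kb from every gene end, were fitted with edgeR 4.0.16 (filterByExpr, TMM, quasi-likelihood test, no replicate term) in R 4.3.3, with whole-table library sizes and Benjamini-Hochberg adjustment at 0.05. The main edgeR fits of regions and of sums per gene were run on simulated counts, and the outcome is not given here. The simulation used library totals without TMM factors, while the fit of simulated sums applied those of the real counts. Alternatives were other scalings, filters, DESeq2 1.42.0, limma-voom 3.58.1, a replicate block, other gene lengths and distances, and each library left out. Library totals of 4660826 to 7590578 counts gave a median of 31 counts per region and a median SE of 0.28 on the log2 scale.

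The regions, gene lists and rules were chosen with earlier results of these data known. Named regions were those called, the 4 smallest p in each direction and the 6 highest levels. Named genes were those called, the 4 smallest p in each direction, those with the most, densest or highest regions, the 3 longest, and per list those with the most regions or smallest p. Start windows, motifs, position and same-direction counts were added after the data were seen, and so were the genes named outside the rule: those with a miRNA hairpin, the 4 with every region above 0, and Shroom3. Some named items, among them the results of 1 gene list, are not reported here. Of 552 list genes, 551 matched the annotation.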

Additional observations from a re-analysis of the deposited data

Results flagged for a closer look

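In groups of 4 libraries, a value was marked when its gap to the nearest other value was too large a share of the group's range by Dixon's test. Of 148 groups tested, 7 were marked, and chance marks about 1 in 20. Among OPA1-deficient libraries the sum over Cacna2d1 had a highest value of 9.019 CPM, that over Immp2l of 86.581 CPM and that over Slc9a9 of 154.469 CPM. The sum over Runx2 had a lowest value of 177.918 CPM and that over Zmiz1 of 393.715 CPM, also among OPA1-deficient libraries. Among WT libraries the sum over Tmem135 had a lowest value of 98.637 CPM, and the region in Zfp407 a highest value of 1.52 CPM.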

How the results depend on the processing

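The 74 log2 fold changes of named items were refitted under 16 alternatives for regions and 18 for sums per gene, giving 1302 values. Of these, 1260 kept their direction and 42 did not. None of the latter was called in the main test, and their main values lay within 0.07 of 0. With 1 library left out the sign turned in Akap13 (main 0.0207, -0.02 to 0.053), Arhgap26 (main 0.0186, -0.0092 to 0.0585), Bach2 (main -0.0611, -0.1376 to 0.0232), Cmip (main -0.0247, -0.0931 to 0.0983), Dlg2 (main -0.0278, -0.1114 to 0.0544), Gse1 (main -0.0379, -0.0908 to 0.0195), Itpr1 (main 0.0145, -0.0118 to 0.0714), Prkcb (main 0.0686, -0.0087 to 0.2), Slc8a1 (main -0.0374, -0.0868 to 0.0214), Slc9a9 (main 0.0406, -0.0558 to 0.091), Snx29 (main -0.0418, -0.0738 to 0.0057), Vps13d (main 0.0158, -0.008 to 0.052), Zmiz1 (main -0.0257, -0.0616 to 0.0406), Rps6ka2 (main -0.0068, -0.0647 to 0.0775), Stard13 (main -0.0235, -0.0603 to 0.0444), Chd9 (main 0.0334, -0.0193 to 0.1029), Stag1 (main -0.0036, -0.0333 to 0.0496). Other settings that turned it gave Itpr1 -0.0001 (over 5 kb from ends), Vps13d -0.0154 (one gene only), Zmiz1 0.0106 (over 5 kb from ends), Rps6ka2 0.0147 (total counts), Rps6ka2 0.0277 (loess offsets), Stard13 0.0076 (loess offsets), Stag1 0.0137 (total counts), Stag1 0.0249 (loess offsets). The cause was not tested.

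No region was called higher in the main test, against 2 with DESeq2 and 0 to 1 with each library left out. The 1 region called lower became 0 with total counts, loess offsets, limma-voom, the replicate block or genes of 400 kb or longer, 2 with genes of 100 kb or longer, 4 with DESeq2 and 0 to 9 with each library left out, the 9 without WT replicate 2. No very long gene was called higher, against 1 with DESeq2 and 1 with regions over 5 kb from every end. The 3 called lower became 0 with total counts, limma-voom or the replicate block, and 0 to 6 with each library left out. The median over all the regions ran from -0.0003 to 0.0274. The median of the membrane traffic list turned to 0.0091 with total counts, and with each library left out it ran from -0.0016 to 0.028; the median of other blood cells (-0.0325 to 0.0808) also turned. The replicate numbers do not pair the libraries, since same-numbered libraries correlated at -0.132 to -0.011 after group means were removed. The medians of internal starts and lists, and the Nr3c2 region, were added to the alternatives after seeing the data, and the low-count filter was set to unscaled library sizes after a first fit. The 6 highest regions and the genes named by the rule are included here, while genes named outside it were not run. Depth limits single regions, which had a median of 31 counts.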
